A study of Mus musculus with 60 samples.

Results

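The genes described here are the cytochrome P450 enzymes of families 1 to 4 in the mouse, chosen by name as every listed symbol of the form Cyp1 to Cyp4 followed by a subfamily letter and a number, with pseudogenes left out. The rule found 78 genes of 19355 rows in the table of cultured cells and 73 of 17473 rows in the table of livers. Families 1, 2, 3 and 4 held 3, 46, 9 and 20 of them. The rule uses names alone, although the families were picked with earlier results of these data known. RNA-seq had been run on 33 libraries of mouse hepatocytes and their cultured progeny and on 18 libraries of mouse liver after surgery, with 3 libraries in each group. In the first set, primary hepatocytes of adult C57BL/6J mice were compared with IL6-iHPCs, the proliferating progenitor-like cells that hepatocytes became in a medium with interleukin 6, EGF, HGF and dexamethasone (IL6-HCM), after 3 and 14 days without passage (D3 and D14, P0) and after 10, 20 or 35 passages (mouse-1 at P10 and P35, mouse-2 at P10, and clone-1 at P20), and with IL6-iMHs, cells matured from each of those 4 passaged lines in a medium with dexamethasone and oncostatin M. The second set came from adult C57BL/6J mice. In it, Normal liver was compared with livers 6 h, 24 h, 3 days, 7 days and 14 days after PHX. PHX is the surgical removal of a large share of the liver, and the groups are named PHX-6h, PHX-24h, PHX-D3, PHX-D7 and PHX-D14. All levels are in FPKM, which scales read numbers for gene length and library depth so that levels of different genes can be set side by side.

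Several features of the groups limit what they can stand for. The 3 libraries of a cell group were technical repeats, so their spread holds no difference between mice or cultures. Mouse-1 was present at 2 passages, and clone-1 descended from 1 hepatocyte. The paper derived its single-cell clones from offspring of Albumin-Cre mice and tdTomato reporter mice, and the library titles do not give the genotype of clone-1. The labels do not say whether the 3 livers of a group were separate mice, so that p-values measure the spread between these samples, which may be technical. Recovered from the FPKM steps, the depth was 49.3 to 88.8 M reads per cell library and 52.04 to 79.2 M per liver library. Reads on 4 Y-linked genes numbered 6575 to 9095 in the clone-1 IL6-iHPCs and 0 in each of the libraries labelled clone-1 IL6-iMHs. Whether both groups share an origin was not tested. The other passaged IL6-iHPCs and IL6-iMHs held 0 to 2 such reads, against 994 to 1550 in hepatocytes and 9185 to 18444 at D3 and D14. One liver library, PHX-D3 replicate 2, stood apart from its group in the members' levels, as given with the liver results. Hepatocyte markers summed to 78667 to 84356 FPKM in hepatocytes, 61569 to 83637 in IL6-iMHs and 1058 to 10247 in IL6-iHPCs of any passage. Markers of bile duct cells summed to 3.84 to 3.94 FPKM in hepatocytes and to 355 to 10976 in IL6-iHPCs, most of it from Spp1. In the IL6-iMHs Spp1 was still higher than in hepatocytes, by 7.36 in log2(FPKM + 1) (limma over lines, adjusted p = 0.018). Krt19, Krt7 and Sox9 were higher there by 6.11, 2.89 and 0.35, without passing the threshold.

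Cytochrome P450 enzymes are haem proteins of the endoplasmic reticulum that insert oxygen into their substrates, with electrons passed on by the reductase Por and by cytochrome b5. Enzymes of families 1 to 3 act on drugs, dietary compounds, steroids and carcinogens, and those of family 4 mainly on fatty acids and eicosanoids. The liver holds most of the body's P450, in largest amounts in the hepatocytes around the central vein, and freshly isolated hepatocytes are known to lose these enzymes in culture. Their genes respond to receptors for foreign compounds: the aryl hydrocarbon receptor (Ahr) drives the Cyp1 genes, the receptors CAR (Nr1i3) and PXR (Nr1i2) the Cyp2b and Cyp3a genes, and PPAR alpha (Ppara) the Cyp4a genes. In mice several members also differ between the sexes in adult liver.

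The promoters of 5 members are shown because the results turn on these genes: the neighbours Cyp1a1 and Cyp1a2, which moved in opposite directions in culture, Cyp2e1, the most abundant member in hepatocytes, which stayed low after maturation, Cyp2a12, which returned, and Cyp2b10, which rose upon maturation. Each is the 250 bases up to the start of transcription in RefSeq on GRCm38.p6, written 5′ to 3′ on the strand of the gene. Capitals mark matches to GCGTG, the core of the site that the aryl hydrocarbon receptor binds (or its complement CACGC), and to TATAAA, the TATA box.

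Cyp1a1, chr9:57697363-57697612 (plus strand): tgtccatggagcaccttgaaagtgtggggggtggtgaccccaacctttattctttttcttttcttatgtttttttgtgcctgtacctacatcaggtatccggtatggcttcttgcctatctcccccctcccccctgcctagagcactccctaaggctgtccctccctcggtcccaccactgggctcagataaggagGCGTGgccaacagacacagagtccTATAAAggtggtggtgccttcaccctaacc

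Cyp1a2, chr9:57683656-57683905 (minus strand): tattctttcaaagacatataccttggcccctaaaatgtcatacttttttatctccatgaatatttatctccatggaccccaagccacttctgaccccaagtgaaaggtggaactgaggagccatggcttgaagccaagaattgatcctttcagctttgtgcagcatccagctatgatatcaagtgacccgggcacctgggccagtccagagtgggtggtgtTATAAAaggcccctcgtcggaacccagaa

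Cyp2e1, chr7:140763569-140763818 (plus strand): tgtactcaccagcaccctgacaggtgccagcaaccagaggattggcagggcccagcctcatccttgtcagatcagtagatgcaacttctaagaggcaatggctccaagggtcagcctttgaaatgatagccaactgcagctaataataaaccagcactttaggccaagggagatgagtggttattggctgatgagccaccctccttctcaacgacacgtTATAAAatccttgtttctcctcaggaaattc

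Cyp2a12, chr7:27028840-27029089 (plus strand): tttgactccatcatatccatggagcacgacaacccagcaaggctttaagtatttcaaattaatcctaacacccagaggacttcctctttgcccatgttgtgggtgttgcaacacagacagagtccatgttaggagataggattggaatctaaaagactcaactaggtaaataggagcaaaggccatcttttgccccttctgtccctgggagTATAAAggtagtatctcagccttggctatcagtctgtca

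Cyp2b10, chr7:25897408-25897657 (plus strand): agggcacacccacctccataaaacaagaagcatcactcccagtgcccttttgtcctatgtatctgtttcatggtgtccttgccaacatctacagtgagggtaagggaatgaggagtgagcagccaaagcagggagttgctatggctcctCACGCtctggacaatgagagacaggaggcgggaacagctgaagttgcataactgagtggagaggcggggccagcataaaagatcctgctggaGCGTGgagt

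Cyp1a1 held both motifs, a TATAAA that began 30 bases and a GCGTG that began 54 bases before the start. Its neighbour Cyp1a2 and also Cyp2e1 and Cyp2a12 held only TATAAA, at 29, 31 and 39 bases. Cyp2b10 held GCGTG on either strand, at 9 and 101 bases, and no exact TATAAA. Among the 64 members with a RefSeq promoter, 15.6% held GCGTG on either strand in these 250 bases, against 28.0% of all 27025 promoters. The other motifs were searched likewise, and none of the 5 contains another. TATAAA stood in 40.6% of the members and 12.9% of all promoters, CAAAGT, part of an HNF4 site, in 45.3% and 12.5%, and GTTAAT, part of an HNF1 site, in 15.6% and 6.58%. The receptor motif AGGTCA stood in 25% of the members and 14.0% of all promoters. A match describes letters and is not a binding site, and neighbouring members share ancestry and promoter sequence.

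In primary hepatocytes, the members summed to 11719.6 to 12451 FPKM in the 3 libraries, 2.03% of all FPKM, and 44 of 78 were at 1 FPKM or more. The 10 most abundant made up 77.5% of that sum. Cyp2e1, which oxidizes ethanol and other small molecules, was the highest at 2569, 2824 and 2807 FPKM, followed by Cyp2f2, an enzyme of the periportal liver and the airway, at 1232, 1389 and 1166, and by the male-biased steroid hydroxylase Cyp2d9 at 1095, 1091 and 915. Cyp3a11, the main mouse counterpart of the drug-metabolizing human CYP3A enzymes, stood at 704, 813 and 936 FPKM. Next came Cyp2c70, which hydroxylates bile acids to make the muricholic acids of mice, at 669, 724 and 812, Cyp2d10 at 776, 635 and 647 and Cyp2c29 at 572, 658 and 683 FPKM. Cyp2a12, another bile acid hydroxylase, was at 495, 509 and 529, Cyp2c50 at 454, 493 and 555 and Cyp2d26 at 536, 535 and 431 FPKM. The 3 libraries of each of these genes lay within a narrow band, while the order of neighbours such as Cyp2c50 and Cyp2d26 was not set apart by it.

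By subfamily, the 15 Cyp2c genes gave the largest sum, 2566 to 3079.8 FPKM over the 3 libraries, with the single Cyp2e1 gene close behind. The 9 Cyp3a genes summed to 913 to 1164 FPKM, nearly all of it from Cyp3a11 and Cyp3a25. Normal liver held a like total of 12810.2 to 14033 FPKM, 2.35% of all FPKM, though the tables were normalized separately and no test was made between them. There the Cyp3a sum was 2703 to 3952 FPKM, and Cyp3a11 rather than Cyp2e1 ranked highest, at 3302, 3459 and 2334 FPKM. Cyp2e1 in Normal liver was at 2456, 2702 and 2390.5 FPKM. Cyp1b1, the family 1 enzyme of tissues outside the liver, was 0 in each hepatocyte library.

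**Figure D1:**
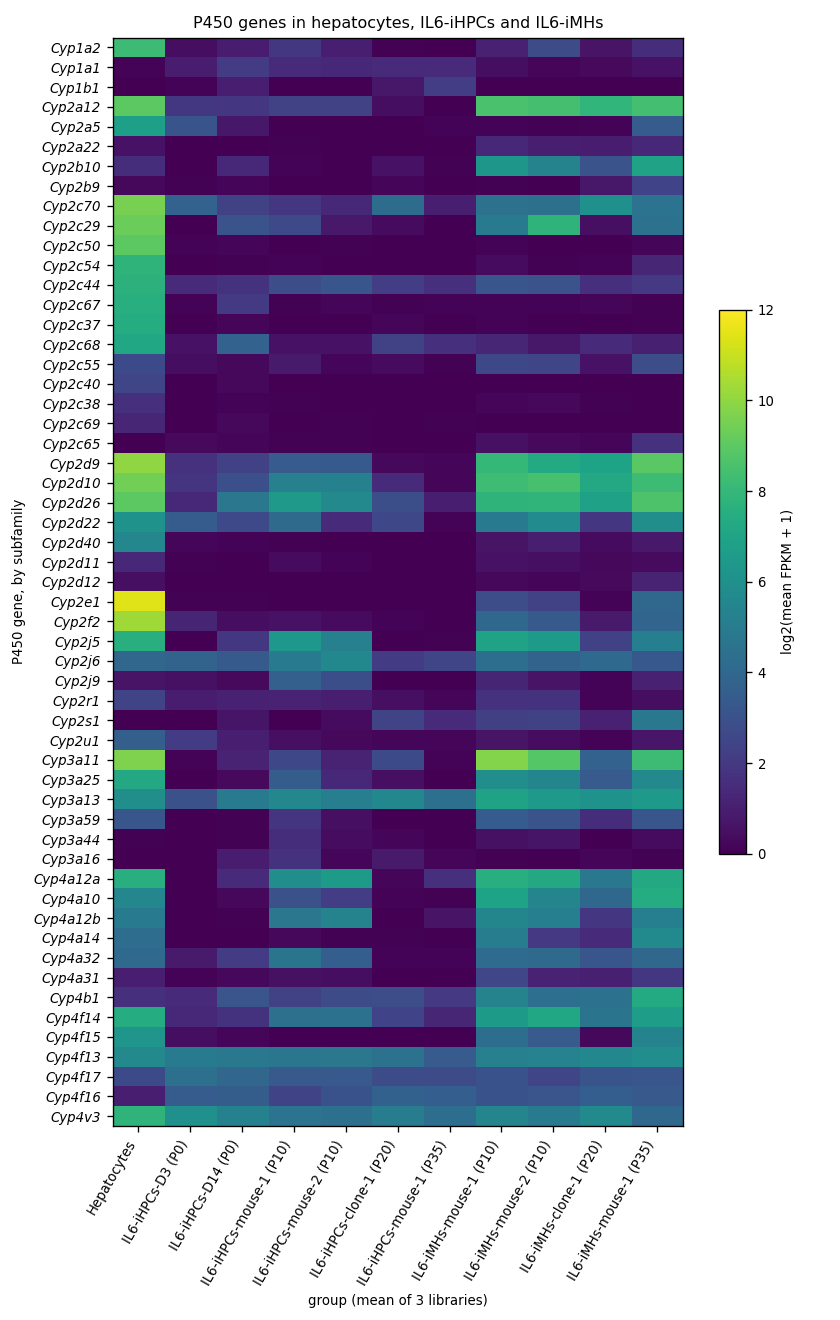
Mean FPKM of the 55 members tested in the 11 cell groups, with genes in rows ordered by subfamily, groups in columns and colour on a log2(FPKM + 1) scale. The block of high values in hepatocytes is mostly lost in the D3 and D14 columns and in the passaged IL6-iHPCs and returns in part in the IL6-iMHs.

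**Figure D2:**
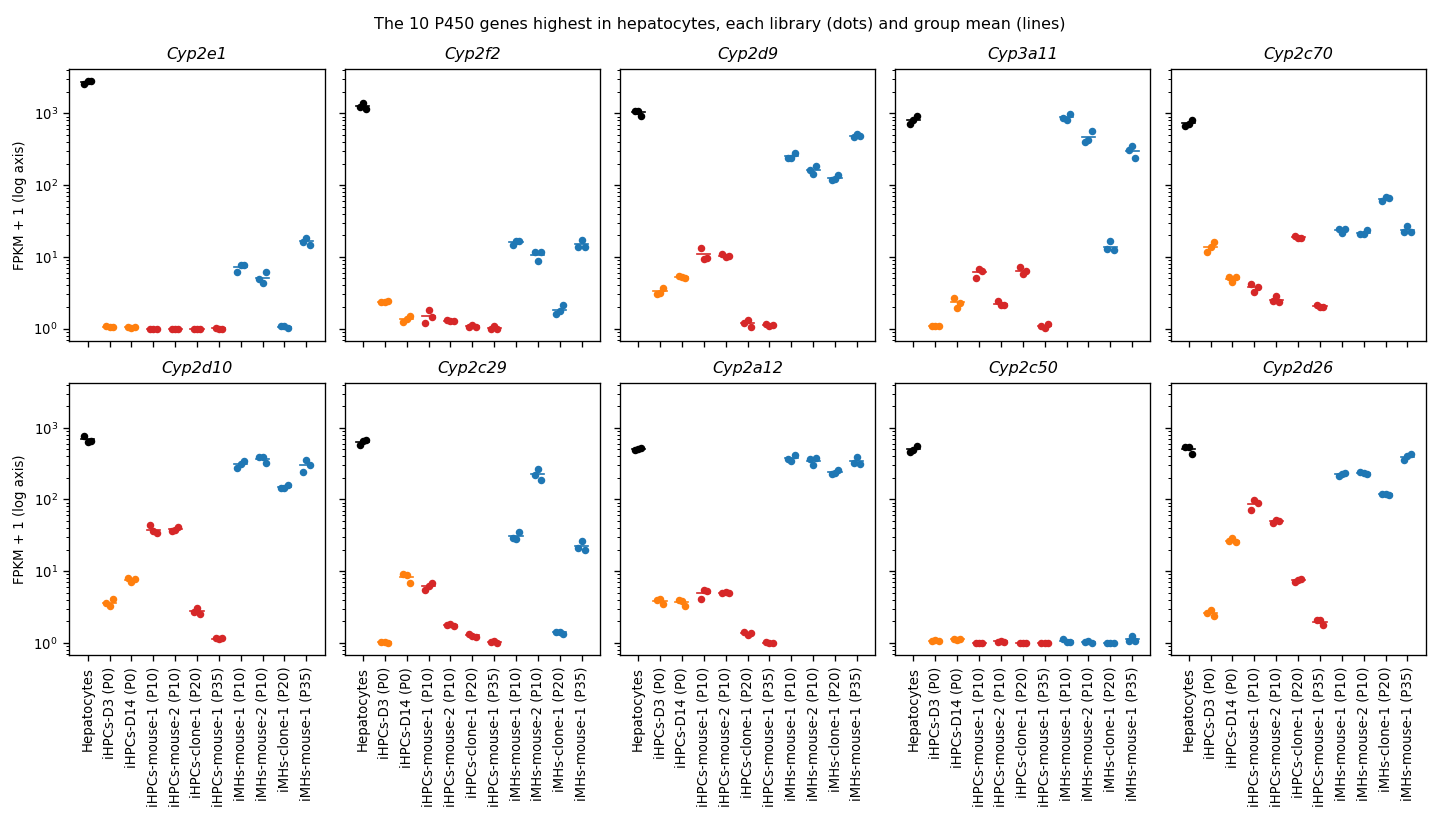
FPKM + 1 on a log axis for the 10 members highest in hepatocytes, by cell group, with a point for each library and a short line at the group mean. Cyp2a12, Cyp2d9, Cyp2d10 and Cyp2d26 return in the IL6-iMHs to above 100 FPKM in each line, while Cyp2e1, Cyp2f2 and Cyp2c50 stay below 20 FPKM.

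The first comparison asked what became of these enzymes when hepatocytes entered proliferative culture. By D3 nearly all of the summed P450 level of the hepatocyte was gone. The members summed to 197 to 201 FPKM at D3 and 235 to 236 at D14, against 11719.6 to 12451 before. A mean of 1 FPKM or more was kept or reached by 18 members at D3 and 27 at D14, against 44 in hepatocytes. Of the 55 members tested, 41 were called at D3, where 66% of all genes tested were: 39 fell and 2 rose (limma on log2(FPKM + 1), adjusted p below 0.05 over all genes tested and at least 2-fold), with a background of 12.1% and 53.9%. At D14 the 43 called members (background 62.9%) were 38 lower and 5 higher than in hepatocytes, with 12.9% and 50% of all genes tested. A member counts as tested if it reached 1 FPKM in at least 3 libraries, a filter that a gene high in one group alone can pass. Over all 78 members, with no filter, the median difference was -1.07 at D3 and -0.83 at D14. Over all rows, likewise unfiltered, it was 0.23 and 0.19, and over the genes that passed the filter 1.14 and 1.00. Whether the upward shift of most genes tested lies in the cells or in the scaling was not tested. With quantile normalization, which sets the distributions of all libraries equal, 46 members fell at D3 and neither rise held, and 45 fell and 2 rose at D14.

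Cyp2e1 fell the most at D3, to 0.0808, 0.0593 and 0.0384 FPKM, and the difference was -11.33 on the log2(FPKM + 1) scale (SE 0.09, adjusted p = 2.7e-37), a scale that understates changes of genes at low levels. Cyp3a11 fell to 0.077, 0.0862 and 0.0733 FPKM and Cyp2c29, a pericentral enzyme known from eicosanoid metabolism, to 0.0308, 0.0172 and 0.0098. No library of D3 came near any library of hepatocytes for these genes, which were picked for the largest falls in the same libraries. Cyp2f2 followed with 1.36, 1.33 and 1.44 FPKM at D3, and Cyp2c54 was 0 in all 3 D3 libraries. Of the 22 members at 100 FPKM or more in hepatocytes, the smallest fall was that of Cyp4v3, a fatty acid hydroxylase, by 1.79 ± 0.06 (SE) to 65.8, 62.7 and 61.4 FPKM. It was the highest member at D3 and made up 31.7% of the sum. Cyp4f13, a hydroxylase of long-chain fatty acids and leukotrienes, stood at 29.5, 30.9 and 26.4 FPKM at D3 and 51.9, 51.99 and 44.2 in hepatocytes, a difference of -0.75 ± 0.08 (SE; adjusted p = 2.26e-10). Cyp2j6 was not called either, with 12.6, 12.5 and 13.8 FPKM at D3 and 14.2, 14.8 and 14.9 in hepatocytes.

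Both members that rose at D3 belong to the Cyp4f cluster on chromosome 17 (GRCm38). Cyp4f16 was at 1.08, 1.09 and 0.815 FPKM in hepatocytes and 9.77, 10.9 and 10.3 at D3, and it rose by 2.51 ± 0.07 (SE; adjusted p = 1.43e-23). Cyp4f17 went from 5.54, 5.35 and 5.44 to 21.5, 20.1 and 20.2 FPKM and rose by 1.75 ± 0.07. Both calls were lost under quantile normalization at D3. Their neighbours Cyp4f14 and Cyp4f15, within the same cluster, fell by 6.09 and 5.83.

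At D14 the falls of Cyp2e1 (0.0645, 0.0215 and 0.0622 FPKM), Cyp2f2 (0.226, 0.381 and 0.475) and Cyp2c50 (0.136, 0.104 and 0.131) were the largest. Cyp4f16 remained the largest rise, at 11.5, 9.37 and 10.8 FPKM. Cyp1a1, the inducible target of the aryl hydrocarbon receptor, was next, from 0.0717, 0.0725 and 0.0863 FPKM in hepatocytes to 3.40, 3.13 and 3.40 at D14, and rose by 2.00 ± 0.09 (SE; adjusted p = 1.97e-19). In the same libraries its neighbour Cyp1a2, which lies head to head with it on chromosome 9 (chr9:57687928-57703824 for Cyp1a1 and chr9:57676937-57683703 for Cyp1a2), went the other way, from 298, 319.5 and 273 to 1.18, 1.00 and 0.619 FPKM, and fell by 7.28 ± 0.16. Cyp4b1, a fatty acid hydroxylase best known from the lung, was at 2.47, 1.55 and 2.22 FPKM in hepatocytes and 8.12, 7.26 and 8.81 at D14, a rise of 1.57 whose call was lost under quantile normalization. Cyp4f17 and Cyp1b1 were the remaining rises.

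Between D3 and D14 a small part of the repertoire came back, with 13 members higher and 3 lower where 5.12% and 5.05% of all genes tested were. Cyp2d26 went from 1.64, 1.91 and 1.39 to 25.01, 27.9 and 24.2 FPKM and rose by 3.34 ± 0.10 (SE; adjusted p = 6.42e-22). Cyp2c68 went from 0.533, 0.654 and 0.328 to 12.6, 13.8 and 11.9 FPKM and Cyp2c29 from 0.0308, 0.0172 and 0.0098 to 8.18, 7.84 and 5.88. For these genes, picked for the largest rises in the same libraries, all 3 D14 libraries lay above all 3 D3 libraries. Even so, Cyp2c29 stayed at 1.15% of its hepatocyte mean. The members that fell were Cyp2a5, a coumarin hydroxylase, from 8.03, 5.78 and 8.90 to 0.808, 0.568 and 0.725 FPKM, Cyp2c70 from 10.8, 12.6 and 15.2 to 4.20, 3.40 and 4.29, and Cyp2u1, a fatty acid hydroxylase, from 3.18, 3.80 and 3.12 to 1.18, 0.82 and 1.10. The call of Cyp2u1 was lost under quantile normalization.

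Passaged IL6-iHPCs were compared with hepatocytes with the 4 lines as the units, each line as the mean of its technical repeats. The single hepatocyte mean was assumed to vary like the lines. Here and in the other fits over lines, mouse-1 at P10 and at P35 entered as separate units, although both come from the same mouse. In this fit 30 of 55 members fell and 2 rose, against 7.74% and 34.6% of all genes tested. The median was -1.02 over the 78 members and 0.15 over all rows, both unfiltered, and 0.93 over the genes tested. Cyp2e1 stood at 0, 0, 0 and 0.00519 FPKM in the lines mouse-1 at P10, mouse-2 at P10, clone-1 at P20 and mouse-1 at P35, an order kept for the lines below. Cyp2f2 stood at 0.489, 0.285, 0.073 and 0.024 FPKM, and Cyp2c50 at 0, 0.0438, 0 and 0 FPKM. These 3 genes, with differences of -11.41, -10.04 and -8.95 on the log2(FPKM + 1) scale, were below 1 FPKM in every line. Cyp4f16 was at 4.57, 7.14, 12.1 and 11.2 FPKM and rose by 2.21 (adjusted p = 0.00901), and Cyp1a1 was at 1.67, 1.49, 1.79 and 1.74 FPKM and rose by 1.31 (adjusted p = 0.00254), with both calls lost under quantile normalization, where 32 members fell.

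The lines held several enzymes at widely different levels. The sum over the members was 505 to 627 FPKM at P10 of mouse-1, 461 to 498 in mouse-2, 187 to 191 in clone-1 and 91.6 to 94.5 at P35 of mouse-1. Cyp4a12a, a male-biased fatty acid hydroxylase, was at 59.9, 93.5, 0.141 and 2.10 FPKM, against 181 FPKM in hepatocytes, so that the P10 lines came nearest. Cyp2j5, which makes epoxides of arachidonic acid, was at 82.1, 35.9, 0.00387 and 0.0538 FPKM, and Cyp2j6, its neighbour on chromosome 4, at 30.5, 47.4, 3.42 and 4.62 FPKM against 14.6 in hepatocytes. Cyp3a13, the Cyp3a gene that lies outside the main cluster on chromosome 5, was held by each line at 46.0, 34.0, 48.3 and 20.4 FPKM, against 60.5 in hepatocytes, while Cyp3a11 within the cluster was at 5.07, 1.22, 5.44 and 0.0876 FPKM against 818. Of the 33 members at 10 FPKM or more in hepatocytes, 21, 25, 29 and 30 stood below 10% of the hepatocyte mean in the 4 lines.

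Late passage was set against early passage within mouse-1. At P35, 24 members were lower and 4 higher than at P10, with 8.94% and 24.8% of all genes tested. Cyp2j5 fell the most, from 66.7, 93.5 and 86.2 FPKM at P10 to 0.0383, 0.0869 and 0.0362 at P35 (-6.29 ± 0.09, SE; adjusted p = 1.23e-29). Cyp2d26 fell from 69.5, 98.4 and 89.5 to 1.07, 1.11 and 0.772 FPKM, and Cyp2d10 from 43.0, 34.8 and 33.1 to 0.164, 0.126 and 0.152. The members that rose were low in hepatocytes, apart from Cyp2c68. Cyp1b1 went from 0.0261, 0.0126 and 0.0246 to 3.44, 3.38 and 3.71 FPKM, Cyp2s1, a P450 of epithelia, from 0.031, 0 and 0.0073 to 1.59, 1.81 and 1.74, and Cyp4f16 from 5.28, 4.26 and 4.18 to 10.9, 10.6 and 11.95. The last of these calls was lost under quantile normalization. Cyp2c68 was the fourth, at 0.74, 0.35 and 0.429 FPKM at P10 and 1.99, 2.17 and 2.18 at P35. Passage and any other difference between these 2 cultures of 1 mouse cannot be told apart.

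Maturation into IL6-iMHs brought part of the repertoire back. The members summed to 3131 to 3449 FPKM at P10 of mouse-1, 2624 to 2815 in mouse-2, 1014 to 1102 in clone-1 and 2979 to 3398 at P35 of mouse-1, above the IL6-iHPCs of each line and below hepatocytes. With the line as a block, 18 of the members rose over their IL6-iHPCs and 1 fell, where 3.41% and 12.7% of all genes tested did. This limma count rests on every line: 0 passed without mouse-1 at P10, mouse-2 or mouse-1 at P35, and 3 without clone-1, although 26 to 28 members were higher at an unadjusted p below 0.05 in each of these fits and 27 with all lines. With no filter on low genes 0 passed too, 28 being higher at an unadjusted p below 0.05, while voom on recovered reads called 32. The libraries labelled clone-1 IL6-iMHs, which lacked the Y-linked reads of the clone-1 IL6-iHPCs, enter these counts. Within single lines, over technical repeats, 23 members rose at P10 of mouse-1, 25 in mouse-2, 20 in clone-1 and 35 at P35 of mouse-1 (background 9.59%, 11.2%, 5.86% and 10.2% of all genes tested), and 2, 3, 2 and 1 fell (background 15.4%, 28.6%, 17.7% and 35.1%). The calls in either direction had backgrounds of 25%, 39.9%, 23.6% and 45.3%.

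Cyp2a12 rose the most across the lines, from 3.93, 4.02, 0.357 and 0.00541 FPKM in the IL6-iHPCs to 374, 348, 239 and 338 FPKM in the IL6-iMHs, in the same order of lines, a difference of 7.06 ± 0.43 (SE; adjusted p = 0.0267). Cyp3a11 rose to 884, 462, 12.8 and 301 FPKM, so that mouse-1 P10 reached the hepatocyte mean of 818 FPKM while clone-1 stayed far below it. Cyp2d9 rose from 9.81, 9.40, 0.195 and 0.127 FPKM to 252, 162, 125 and 485 FPKM. For each of these genes, picked for the largest rises in the same lines, every line was higher after maturation than before. Cyp1a1 was the single member that fell, from 1.67, 1.49, 1.79 and 1.74 FPKM to 0.365, 0.125, 0.217 and 0.519 FPKM (-1.04 ± 0.14, SE; adjusted p = 0.0352). The calls of Cyp1a1 and Cyp3a11 were lost under quantile normalization, and each of these 4 calls was lost without any one of the lines other than clone-1, those of Cyp1a1 and Cyp2d9 also without clone-1.

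Against hepatocytes, 17 members were still lower in the IL6-iMHs of the 4 lines and 2 were higher, with 3.69% and 6.65% of all genes tested. Without clone-1 these counts were 16 and 2. Cyp2e1 reached 6.15, 4.06, 0.0677 and 15.4 FPKM, at most 0.564% of its hepatocyte mean, and changed by -9.10 on the log2(FPKM + 1) scale (SE 1.14, adjusted p = 0.00159). Cyp2c50 stood at 0.0747, 0.0265, 0 and 0.113 FPKM, Cyp2c67 at 0.0797, 0.0835, 0.161 and 0.0593 FPKM and Cyp2c37 at 0.0699, 0.0107, 0.0247 and 0.0363 FPKM, against 501, 188 and 169 FPKM in hepatocytes. These Cyp2c genes remained below 1 FPKM in each line. The 2 higher members were Cyp4b1, at 40.5, 19.6, 21.4 and 159.8 FPKM against 2.08 in hepatocytes (adjusted p = 0.0496), and Cyp4f16, at 7.07, 7.86, 10.9 and 9.17 FPKM against 0.994 (adjusted p = 0.022). Both calls were lost in voom on recovered reads and without mouse-2. That of Cyp4f16 was also lost without mouse-1 at P35, and that of Cyp4b1 under quantile normalization and without clone-1, without mouse-1 at P10 or without any of 6 single libraries.

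Set out by gene cluster, the members that returned and those that did not are partly neighbours on the genome. Of the 33 members at 10 FPKM or more in hepatocytes, 13 stood below 10% of the hepatocyte mean in all 4 lines of IL6-iMHs, 17 reached 50% in no line, and 9 reached 50% in 3 or 4 lines. The 7 Cyp2c genes among the 13 were Cyp2c37, Cyp2c44, Cyp2c50, Cyp2c54, Cyp2c67, Cyp2c68 and Cyp2c70, and the other abundant Cyp2c gene, Cyp2c29, was below 10% in 3 lines but at 35.2% in mouse-2. All but Cyp2c44 lie in 1 cluster on chromosome 19 (chr19:39007019-40187333, GRCm38). Opposite to these, each of the 5 abundant genes of the Cyp4a cluster on chromosome 4 (chr4:115106323-115647723) reached 50% of hepatocytes in at least 2 lines. Cyp4a32 did so in all 4, at 107%, 102%, 51.3% and 95.9%, and Cyp4a10, a fatty acid omega-hydroxylase under PPAR alpha, was at 273%, 94.2%, 33.9% and 373%. In the Cyp2d cluster on chromosome 15, Cyp2d10, Cyp2d26 and Cyp2d9 stood above 10% in every line, while Cyp2d40 was at 1.17%, 2.24%, 0.589% and 1.69%.

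Besides Cyp4a32, the members at 50% or more in every line were Cyp2j6, Cyp3a13 and Cyp4f13. Cyp3a13 exceeded hepatocytes in each, at 196%, 149%, 116% and 145%. The others below 10% throughout were Cyp1a2, Cyp2a5, Cyp2d40, Cyp2e1, Cyp2f2 and Cyp2u1. The libraries labelled clone-1 IL6-iMHs had the lowest median, with 21 of 33 members below 10% and a median of 3.80% of the hepatocyte level, while the medians of the other lines were 25.3%, 15.8% and 33.1%. The highest of these medians, 33.1%, was that of mouse-1 at P35. Passage number, descent from a single hepatocyte and the origin of the clone-1 libraries cannot be told apart.

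**Figure D3:**
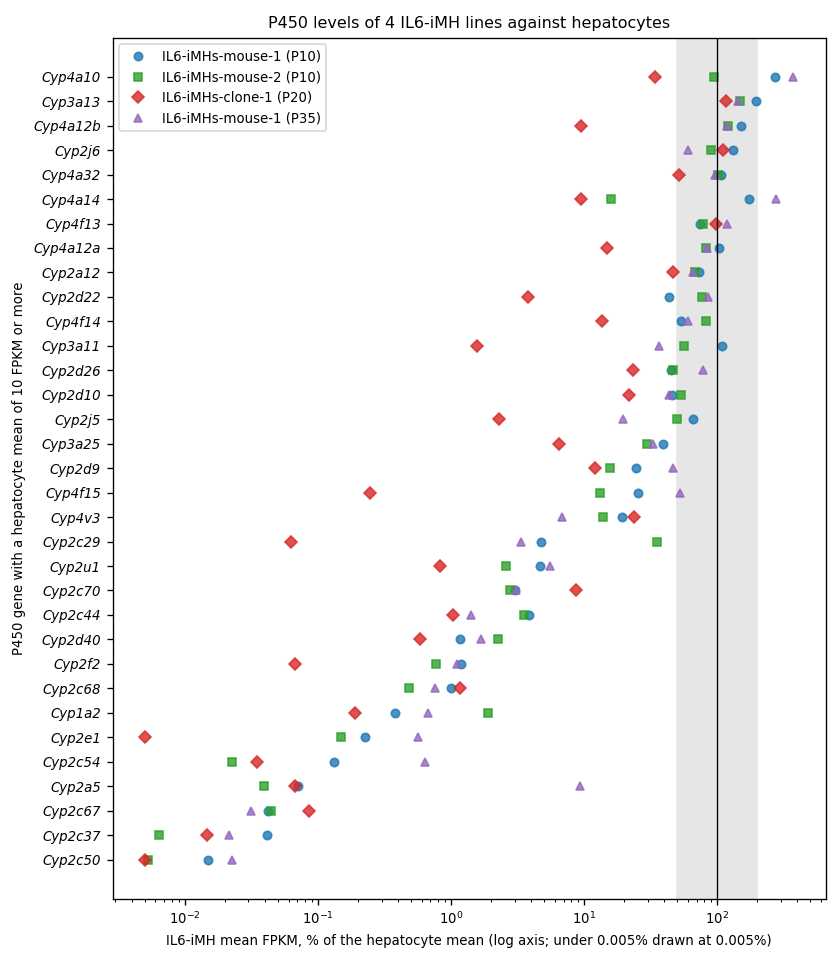
Mean FPKM in the IL6-iMHs of the 4 lines as a percent of the hepatocyte mean, on a log axis with values below 0.005% drawn there, for the 33 members at 10 FPKM or more in hepatocytes, with a point for each line and the range from 50% to 200% shaded. Cyp2j6, Cyp3a13, Cyp4a32 and Cyp4f13 lie at 50% or more in all 4 lines, and 13 members lie below 10% in all 4.

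Cyp2b10, the classic target of CAR, lay outside the set of 33 because hepatocytes held it at only 2.00, 1.81 and 2.06 FPKM. IL6-iMHs held 80.1, 40.2, 7.43 and 119.8 FPKM, against 0.0941, 0.0271, 0.499 and 0.0574 FPKM in the IL6-iHPCs, and the rise over the IL6-iHPCs was 5.21 ± 0.74 (SE; adjusted p = 0.0352). Against hepatocytes the difference was 3.86 (adjusted p = 0.0836), which missed the threshold in the fit over lines. Cyp2s1 was at 32.0, 22.5 and 26.3 FPKM in the IL6-iMHs of mouse-1 P35 and at 1.11 to 4 FPKM in the means of the other lines, against 0.00328 in hepatocytes.

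The members known from the 2 zones of the liver lobule fell together in culture. All 8 pericentral members (Cyp1a2, Cyp2a5, Cyp2c29, Cyp2c37, Cyp2c50, Cyp2c54, Cyp2e1 and Cyp3a11) and the periportal member Cyp2f2 fell at D3, at D14 and in the passaged IL6-iHPCs. In IL6-iMHs, Cyp3a11 alone of the 9 reached 50% of hepatocytes in any line, at 108%, 56.5%, 1.57% and 36.8%. Cyp1a2, which metabolizes caffeine, was at 1.13, 5.66, 0.56 and 1.98 FPKM against 298, 319.5 and 273 FPKM in hepatocytes. Cyp2a5 was at 0.078, 0.0431, 0.0734 and 10.3 FPKM against 111, 107 and 111, Cyp2c54 at 0.295, 0.0497, 0.0765 and 1.41 FPKM against 198, 207 and 261, and Cyp2c37 in hepatocytes at 152, 162 and 193. Cyp2c29 was at 30.2, 224, 0.396 and 21.4 FPKM. Cyp2f2 was at 15.1, 9.69, 0.844 and 13.9 FPKM against 1232, 1389 and 1166. Mouse-1 P35 held the highest level of Cyp2a5, Cyp2c54 and Cyp2e1 among the lines, and mouse-2 P10 that of Cyp1a2 and Cyp2c29.

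The male-biased members Cyp4a12a and Cyp4a12b, beside Cyp2d9, were among those with high levels after maturation. All 4 IL6-iMH lines held 0 Y-linked reads, against 994 to 1550 in the hepatocyte libraries, and the part of this difference in the levels of sex-biased members was not tested. Cyp4a12a stood at 176, 185 and 180.5 FPKM in hepatocytes and 187, 149, 27.0 and 150.3 FPKM in the IL6-iMHs, and Cyp4a12b at 27.0, 33.7 and 27.3 in hepatocytes and 44.0, 35.4, 2.77 and 34.9 FPKM in the IL6-iMHs. Clone-1 was the lowest line for each. The coding transcripts of Cyp4a12a and Cyp4a12b share 54.8% of their bases in exact stretches of 100 or more, so reads could be split between them. Of the 9 female-biased members, the highest mean in any cell group was 4.73 FPKM, for Cyp2c40 in hepatocytes, where the libraries were at 4.39, 4.71 and 5.08. Cyp2c69 followed there with 1.41, 1.33 and 1.67 FPKM, and Cyp2b9 reached 4.57, 4.49 and 4.10 FPKM in the IL6-iMHs of mouse-1 P35. Cyp3a16 and Cyp3a44 were highest in the mouse-1 P10 IL6-iHPCs, at 2.44, 2.87 and 1.94 and 1.06, 2.44 and 2.35 FPKM. Cyp2a4, Cyp2b13, Cyp3a41a and Cyp3a41b stayed below 1 FPKM in all 33 libraries. Cyp2c40 and Cyp2c69 fell at D3, at D14, in the passaged IL6-iHPCs and in the IL6-iMHs.

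Mouse-1 gave IL6-iMHs at 2 passages. At P35, 13 members were called against P10 (background 6.21%), 7 of them higher and 6 lower, with 3.57% and 2.64% of all genes tested. Cyp2a5 was the largest rise, from 0.0525, 0.101 and 0.0809 FPKM at P10 to 9.04, 10.8 and 10.9 at P35. Cyp2s1 went from 4.17, 3.63 and 3.74 to 32.0, 22.5 and 26.3 and Cyp2b9 from 0.0566, 0.0744 and 0.0349 to 4.57, 4.49 and 4.10. The groups did not overlap for these genes, which were picked for the largest rises in the same libraries. The falls were largest for Cyp2j5, from 121, 119.8 and 121 to 33.8, 40.4 and 33.2 FPKM, Cyp3a11, from 856, 824 and 972 to 311, 349 and 242, and Cyp4v3, from 43.8, 40.7 and 43.2 to 14.7, 16.3 and 14.6. Kupffer cell and macrophage markers summed to 17.8 to 21.3 FPKM in the IL6-iMHs at P35 and 2.29 to 3.51 at P10, nearly all from Csf1r, with Clec4f, Vsig4, Cd5l and Timd4 at 0 in every library of both, and whether this has a part in the differences was not tested.

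The signed change upon maturation at P35 minus that at P10 was above 0 for 28 called members and below 0 for 3 (interaction contrast, with 9.65% and 24.1% of all genes tested). Cyp2d26 rose from 1.07, 1.11 and 0.772 FPKM to 354, 403 and 427 at P35 and from 69.5, 98.4 and 89.5 to 211, 224 and 235 at P10, and the difference between these rises was 6.26 ± 0.14 (SE; adjusted p = 8.75e-25). Cyp2d10 went from 0.164, 0.126 and 0.152 to 241, 350.2 and 304 FPKM at P35 and from 43.0, 34.8 and 33.1 to 277, 312 and 348 at P10, and Cyp2d22 from 0.088, 0.0948 and 0.0801 to 59.5, 56.4 and 66.2 and from 14.7, 17.2 and 17.5 to 25.7, 38.1 and 29.4. For these Cyp2d genes the IL6-iHPCs differed more between passages than the IL6-iMHs did. Cyp1b1 had the largest difference the other way (-2.14), being above 1 FPKM in mouse-1 only in the P35 IL6-iHPCs. Cyp2c68 (-1.28) and Cyp4v3 (-1.19), the other two, lost their calls under quantile normalization.

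The proteins that P450 enzymes need were measured in the same libraries. All 7 electron and membrane partners and all 8 enzymes of haem synthesis were tested, and their median differences were -0.90 and -0.84 at D3 and 0.15 and -0.63 in the IL6-iMHs, beside 1.14 and 0.46 over all genes tested. At D3 Cyb5r1 rose, while Cyb5a, the microsomal cytochrome b5, and its reductase Cyb5r3 fell. In the passaged IL6-iHPCs Cyb5r1 rose and Cyb5a and Pgrmc1 fell. Cyb5a was at 1569.9, 1400.1 and 1693 FPKM in hepatocytes, 379, 225, 515 and 216 FPKM in the IL6-iHPCs and 802, 1082, 658 and 789.8 FPKM in the IL6-iMHs. Por, the reductase that serves all members, was at 70.0, 64.6 and 56.8 FPKM in hepatocytes and 89.2, 95.4, 134 and 145 FPKM in the IL6-iMHs, which with their IL6-iHPCs at 42.4, 29.6, 91.8 and 75.2 FPKM gave a rise of 1.05 (adjusted p = 0.0437). Of the 8 enzymes of haem synthesis, 3 fell at D3, 5 at D14 and 1 in the passaged IL6-iHPCs, with a background of 12.1%, 12.9% and 7.74%. The share in the passaged cells was near its background. Alas1, the first and rate-limiting enzyme, was at 139, 147 and 94.2 FPKM in hepatocytes, 32.2, 32.98 and 30.9 at D14 and 63.2, 74.0, 70.8 and 42.8 FPKM in the IL6-iMHs.

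Of 20 regulators of transcription known to raise or lower hepatic P450 genes, 19 were tested. Their median was -0.19 at D3 and 0.37 in the IL6-iMHs. At D3, 7 fell (Cebpa, Foxa3, Nr0b2, Nr1h4, Nr1i2, Nr1i3 and Rxra) and 5 rose (Ahr, Arnt, Foxa2, Nfia and Nfib), where 12.1% of all genes tested fell and 53.9% rose, so that the share of regulators that rose lay below the background. CAR (Nr1i3) stood at 22.6, 22.3 and 22.2 FPKM in hepatocytes, 0.388, 0.254 and 0.254 at D3 and 2.13, 1.29, 1.3 and 2.69 FPKM in the IL6-iMHs, and it was lower than in hepatocytes in both. Ahr went from 1.34, 1.77 and 1.22 FPKM in hepatocytes to 63.9, 57.2 and 70.1 at D3 and 21.1, 20.3 and 20.3 at D14, while Cyp1a1 was higher at D14 than at D3. PXR (Nr1i2) was at 38.8, 38.1 and 41.7 FPKM in hepatocytes, 7.65, 9.37 and 6.90 at D3 and 36.9, 40.1, 19.4 and 26.8 FPKM in the IL6-iMHs. In the passaged IL6-iHPCs 5 regulators fell (background 7.74%), and in the IL6-iMHs 3 were lower (Hlf, Nr0b2 and Nr1i3) and 2 higher (Dbp and Tef) than in hepatocytes (background 3.69% and 6.65%). Hnf4a, a central regulator of hepatocyte genes, was not called against hepatocytes in any of these groups, at 134, 139 and 147 FPKM in hepatocytes and 216, 174, 258 and 145 FPKM in the passaged IL6-iHPCs.

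Other targets of the receptors were measured beside the members. Of 4 further targets of the aryl hydrocarbon receptor, 3 were tested. Tiparp alone rose at D3, at D14 and in the passaged IL6-iHPCs (background 53.9%, 50% and 34.6%), so the share that rose was not above the background. Tiparp went from 0.429, 0.531 and 0.44 FPKM in hepatocytes to 16.0, 17.1 and 16.9 at D3. Nqo1 was at 4.05, 3.36 and 4.43 FPKM in hepatocytes and 3.06, 3.94 and 3.00 at D3. Of 7 further targets of PPAR alpha, 2 rose and 3 fell at D3 (background 53.9% and 12.1%), and 4 rose and 3 fell at D14 (background 50% and 12.9%). The share that rose was near the background at D14 and below it at D3. In the IL6-iMHs, Acot1 and Vnn1 were higher than in hepatocytes (background 6.65%), and Acot1 was at 186, 159, 66.8 and 188 FPKM against 10.4, 9.13 and 9.90.

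The liver samples followed the enzymes through regeneration in the animal. The mean total was lowest at 24 h. The members summed to 12810.2 to 14033 FPKM in Normal liver, 9660.5 to 9802 at 6 h and 6023 to 8732 at 24 h. The sums were 3761 to 13019 at 3 days, 11563 to 12712 at 7 days and 12563 to 13932 at 14 days. At 3 days the lowest library lay below every library at 24 h, and the highest lay within the range of Normal liver. The time at which the total returned is therefore not set by these sums. In whole liver, fewer hepatocytes and less RNA per hepatocyte cannot be told apart, and hepatocyte markers summed to 57009.8 to 60979 FPKM in Normal liver and 33580.4 to 38126 at 24 h. Of 52 members tested, 7 fell and 3 rose at 6 h (background 11.5% and 4.78%, 16.3% in either direction), and 18 fell and 3 rose at 24 h (4.16% and 3.74%, 7.9% in either). At 3 days 12 fell and 2 rose (2.49% and 3.33%, 5.82% in either), at 7 days 7 fell and 4 rose (1.03% and 7.81%, 8.84% in either), and at 14 days 4 fell and 0 rose (2% and 0.981%, 2.98% in either). All 5 comparisons share the Normal liver libraries. At 6 h the share of lower members, 13.5%, was near its background. The shares of members that rose, 5.77% at 6 h, 5.77% at 24 h, 3.85% at 3 days and 7.69% at 7 days, were near their backgrounds as well, so the rises are results about single genes and not about the members as a set. For 14 days, limma put 1 member higher at an unadjusted p below 0.05, and voom on recovered reads called 0 higher.

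At 6 h the falls were largest for Cyp2u1, from 18.4, 9.43 and 13.9 to 0.465, 1.47 and 0.546 FPKM, Cyp2c55, from 8.92, 8.56 and 9.50 to 1.32, 2.90 and 1.24, and Cyp4b1, from 12.6, 9.70 and 11 to 2.97, 2.54 and 4.16. The rises were Cyp2b10, from 1.24, 1.47 and 2.15 to 10.6, 21.1 and 53.6 FPKM (3.22 ± 0.69, SE; adjusted p = 0.00129), Cyp4a14, from 22.8, 96.0 and 26.3 to 144, 127 and 261, and Cyp4f17, from 7.81, 8.21 and 7.86 to 14.3, 13.0 and 33.03. The call of Cyp2c55 was lost under quantile normalization, where 3 members fell and 3 rose, and without any 1 of 5 of the 6 libraries, and that of Cyp4f17 without PHX-6h replicate 3. The most abundant of the pericentral members was not called. Cyp2e1 was at 2211, 2019 and 2221 FPKM at 6 h, a difference of -0.23 ± 0.47 (SE; adjusted p = 0.706).

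At 24 h the fall was broad. Cyp2a5 fell from 203, 441 and 239 to 70.3, 17.1 and 13.0 FPKM (-3.41 ± 0.82, SE; adjusted p = 0.00582). The female-biased Cyp2c69 fell from 22.6, 32.4 and 41.4 to 3.504, 1.36 and 3.55 and Cyp2c40 from 43.3, 91.5 and 77.7 to 13.4, 4.24 and 9.62. The periportal Cyp2f2 fell from 1049, 579.5 and 1038 to 255, 79.1 and 115 FPKM, and the pericentral Cyp3a11 from 3302, 3459 and 2334 to 822, 718 and 471. Other pericentral members were not called: Cyp1a2 was at 168, 52.2 and 45.4 against 487, 279.5 and 415 in Normal liver, Cyp2c29 at 288, 65.7 and 97.4 against 634, 674 and 653, and Cyp2e1 at 2089, 1451 and 1241 against 2456, 2702 and 2390.5. Cyp2c37 was at 162, 65.3 and 82.4 FPKM against 112, 125 and 112, Cyp2c50 at 303, 146 and 143 against 429, 547 and 409, and Cyp2c54 at 99.4, 35.5 and 32.0 against 129, 190.4 and 129. For each of these 6 genes replicate 1 was the highest library at 24 h.

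Against this trend, 3 neighbours of the Cyp4a cluster rose at 24 h. Cyp4a14 went from 22.8, 96.0 and 26.3 to 622, 646 and 709 FPKM and rose by 4.05 ± 0.49 (SE; adjusted p = 5.57e-05). Cyp4a31 went from 2.44, 3.87 and 1.69 to 10.1, 16.3 and 27.5, and Cyp4a10 from 60.6, 120.5 and 73.1 to 324, 359 and 278. All libraries at 24 h lay above all of Normal liver for each, which adds no support, as these genes were picked by their calls in the same libraries. Cyp4a12a in the same cluster, a male-biased member, fell from 159, 150.2 and 128 to 83.4, 44.2 and 38.7. Of the 7 further targets of PPAR alpha, Acot1, Ehhadh and Vnn1 rose at 24 h, and at 6 h 4 rose (background 3.74% and 4.78%).

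At 3 days 1 library decided several values. PHX-D3 replicate 2 held 0.0642 FPKM of Cyp1a2, while replicates 1 and 3 held 229.7 and 226. It held 2.52 FPKM of Cyp2c50, against 230.5 and 351 in the others, and 0.997 of Cyp4f14, against 119 and 162. Cyp2e1 was at 2801, 398 and 1923 FPKM in the 3 libraries, Cyp2f2 at 433, 44.2 and 435, Cyp3a11 at 4201, 487 and 3797, Cyp2c29 at 447, 3.85 and 485, Cyp2c37 at 61.6, 3.21 and 67.3 and Cyp2c54 at 63.3, 0.317 and 86.3. In each of these genes replicate 2 was the lowest, and without it 9 members fell and 5 rose (background 1.3% and 2.86%), 11 of them shared with the 14 called from all 3 libraries. Without replicate 1 or replicate 3 the count was 23 or 22. The falls of Cyp2c37, Cyp2c54 and Cyp2f2 rested on replicate 2, and that of Cyp2c54 was also lost without any 1 Normal liver library. Without replicate 2, Cyp2b9, Cyp2b10 and Cyp3a13 were called higher.

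The changes at 3 days that held with and without that library were 9 falls and 2 rises. Cyp2c40 fell from 43.3, 91.5 and 77.7 to 6.26, 0.125 and 4.64 FPKM, Cyp2c69 from 22.6, 32.4 and 41.4 to 1.95, 0 and 1.08, and the male-biased Cyp4a12a from 159, 150.2 and 128 to 32.4, 22.8 and 15.1. Cyp4a12b was at 40.2, 24.0 and 38.4 in Normal liver and 13.5, 30.4 and 5.25 at 3 days. Members of either sex bias were among the falls. Cyp4a31 rose from 2.44, 3.87 and 1.69 to 28.2, 14.5 and 14.2 FPKM and Cyp4a14 from 22.8, 96.0 and 26.3 to 414, 135 and 127. Cyp2d9 was not called, at 595, 570.2 and 579 against 910.3, 845 and 826 FPKM.

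The 7 members lower at 7 days than in Normal liver included Cyp2c69, at 4.90, 4.24 and 5.52 FPKM, Cyp2c40, at 17.0, 16.2 and 20.4 (a call lost without any of 5 of the 6 libraries), and Cyp4a12b, at 9.66, 10.2 and 10.5. Cyp2b9, a female-biased member, rose from 0.0889, 1.22 and 0.226 to 18.3, 22.1 and 24.1 FPKM (3.96 ± 0.88, SE; adjusted p = 0.00306), a call lost in voom on recovered reads. Cyp2g1, an olfactory P450, rose from 0.629, 1.55 and 0.942 to 7.15, 6.50 and 6.74, and Cyp2a22 from 0.511, 1.65 and 0.44 to 4.07, 4.05 and 4.08. Cyp2a5 was at 1067, 1335 and 1256 FPKM against 203, 441 and 239, a difference of 2.12 ± 0.82 (SE; adjusted p = 0.0649), and the female-biased Cyp2a4, which of all genes shares the most exact sequence with it (678 of the 2013 bases of its coding transcript), was at 18.2, 29.3 and 22.3 against 0.989, 14.7 and 5.57. The fourth rise was Cyp4f18, a leukotriene hydroxylase of leukocytes, from 0.168, 0.362 and 0.236 to 2.76, 2.16 and 2.23 FPKM. In the same libraries Kupffer cell and macrophage markers summed to 969.9 to 1414 FPKM against 166 to 267 in Normal liver and lymphocyte markers to 13.1 to 15.4 against 0.997 to 1.94, and their part in these rises was not tested.

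At 14 days 4 members were still lower. Cyp2c40 was at 1.31, 1.75 and 0.978 FPKM, Cyp2c69 at 0.285, 0.35 and 0.599, Cyp2c68 at 60.6, 56.7 and 62.1 against 188, 276 and 232 in Normal liver, and Cyp2j9 at 0.899, 0.752 and 0.79 against 4.12, 5.87 and 3.39. Cyp2c40 and Cyp2c69 were lower than in Normal liver at 24 h, 3, 7 and 14 days. The coding transcript of Cyp2c40 shares 73.7% of its bases with other genes in exact stretches of 100 or more, and that of Cyp2c69 58.1%, so their reads could be split. Reads on the Y-linked genes numbered 7484 to 10652 in the Normal liver libraries, 2673 to 3690 at 14 days and 4663 to 16272 at the other times. The part of this difference in the levels of sex-biased members was not tested. Cyp2e1, Cyp1a2 and Cyp3a11 were at 2639, 3091 and 3075, 319, 546 and 448, and 2764, 2332 and 2836 FPKM, each overlapping Normal liver. The male-biased Cyp2d9 stood at 934, 1115 and 1029.7, Cyp4a12a at 104, 184 and 101 and Cyp4a12b at 24.6, 38.0 and 28.3.

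**Figure D4:**
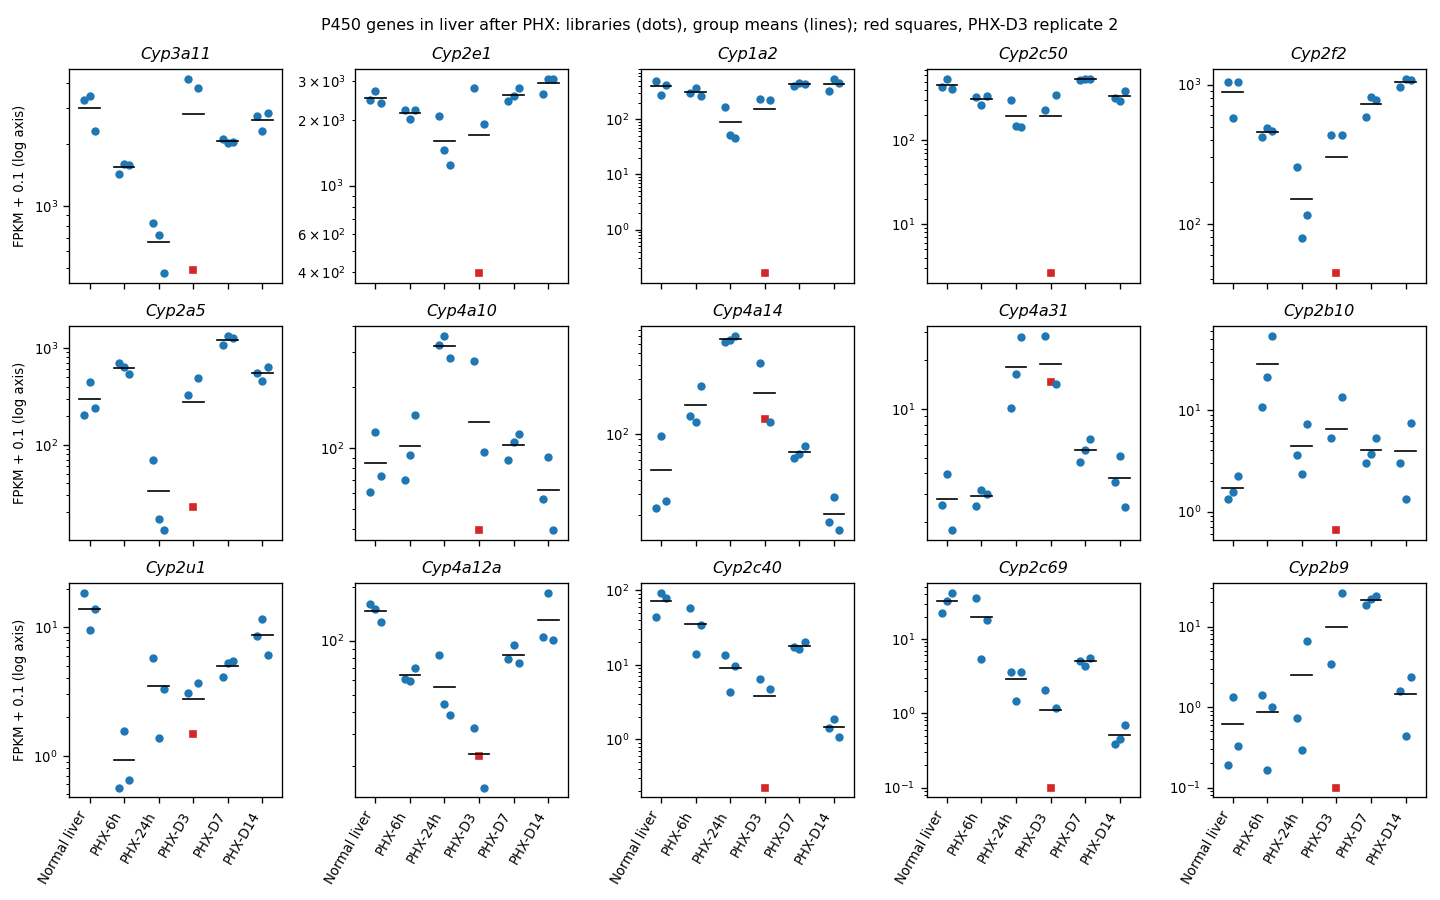
FPKM + 0.1 on log axes that differ between panels for 15 members in Normal liver and at 5 times after PHX, with a point for each library, a short line at the group mean and PHX-D3 replicate 2 as a red square. Cyp4a14 peaks at 24 h, and Cyp2a5 and Cyp2f2 are lowest there. PHX-D3 replicate 2 lies far below its group for the pericentral Cyp1a2, Cyp2c50, Cyp2e1 and Cyp3a11 and also for the periportal Cyp2f2.

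Of the partners in the liver, Por rose at 6 h, 24 h and 3 days, from 63.8, 92.1 and 83.8 FPKM in Normal liver to 314, 315 and 228, 218, 190.4 and 273 and 334, 341 and 347. Alas1 rose at 6 h and 3 days, to 171, 375 and 384 and 279, 147 and 475 FPKM from 26.2, 60.3 and 227, with 1 Normal liver library above 1 library of each time. At 6 h 8 of 19 regulators fell (background 11.5%), with Cebpa from 191, 252 and 208 to 62.0, 32.0 and 34.0 FPKM, Nr1i3 from 44.1, 37.9 and 27.4 to 7.84, 18.8 and 19.2, and the clock output factor Dbp from 32.5, 79.5 and 48.7 to 1.58, 1.75 and 1.396. At 24 h Cebpa and Dbp fell and Ahr rose. The time of day of sampling is not given in the sources used here. Tiparp rose at 6 h and, with Nqo1, at 7 days (background 4.78% and 7.81%).

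A further table, of hepatocytes and of cultures at day 7 in medium with and without IL6, held 480 rows here and 3 members, and no test was made on it. Cyp2c55 was at 3.31, 3.86 and 3.26 FPKM in primary hepatocytes, 0.0344, 0.051 and 0.0634 in the cultures without IL6 and 0.0821, 0.0842 and 0.177 with it. Both culture groups lay below hepatocytes. Cyp3a57 was near 0 in all 9 libraries.

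Sequence shared between members limits how far single genes can be told apart. Of the 78, 47 held an exact stretch of 100 bases or more in common with another gene in their longest coding transcript (GENCODE vM21), and for 33 such stretches covered over 10% of it. Such stretches covered 58.1% of Cyp2c67, 39.3% of Cyp2d10, 41.7% of Cyp2a5 and 42.2% of Cyp4a32, so their values are uncertain to a degree that was not measured. Cyp2f2, Cyp2b10 and Cyp2u1 held no such stretch, and in Cyp2e1 and Cyp4b1 it covered 6.82% and 14.7%.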

How the data were processed

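RNA-seq libraries of mouse hepatocytes, IL6-iHPCs and IL6-iMHs (33) and of regenerating livers (18) were analysed from tables of gene-level FPKM values that the authors deposited. The submitters' processing notes name TopHat 1.4.1, Cufflinks 1.3.0 and mm10 without their roles. The headers give no unit, and the values were taken as FPKM from the tools named and from steps of whole reads. Such steps were found for 18107 of 18828 cell rows above 0 and 16709 of 17329 liver rows. In these rows 100% of values lay within 0.02 of a read, which the search itself required. Whole-read steps do not tell FPKM from other measures scaled by gene length and depth. The steps gave a median depth of 60.8 M reads in the cells and 57.4 M in the livers. A count of 0 allows up to 3 reads, for counting error only. How reads shared by near-identical genes were assigned is not given in the sources used here.

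Groups followed the sample labels. Differences were tested on log2(FPKM + 1) with limma 3.58.1 (R 4.3.3, trended variance) over the genes that reached 1 FPKM in 3 or more libraries, 12328 in the cells and 11114 in the livers. Single cell groups were compared over their technical repeats, the passaged lines over line means, IL6-iMHs and IL6-iHPCs with the line as a block, and livers over the 18 libraries. A gene was called at an adjusted p (Benjamini-Hochberg) below 0.05 and at least 2-fold. On simulated data with 200 changed genes, the fits tried recovered 93.5% (livers at 24 h) to 100% of them, with 0 to 6 wrong calls. Only the spread within groups was simulated, so the fits over lines were not tested with differences between lines. Values in every library were given for the 10 members highest in hepatocytes, the 3 largest called rises and falls of each comparison, and the members known for sex bias or lobular zone, and other members were named by their place in a cluster or their level. The members and lists were chosen with earlier results of these data known. Promoters came from RefSeq (GRCm38.p6), with 64 of 78 members matched, and gene coordinates and coding transcripts from GENCODE vM21. Shared stretches were found with blastn 2.17.0+ and exact matching (Python 3.11.15). Alternatives were a pseudocount of 0.1, no filter, quantile normalization, limma voom on recovered reads, the replicate number as a block, technical repeats as samples, and leaving out each library or line.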

Additional observations from a re-analysis of the deposited data

Results flagged for a closer look

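Among the 4 lines, 62 pairs of a member and a state (IL6-iHPCs or IL6-iMHs) spanned at least 1 on the log2 scale. In 6 of them 1 line lay apart from the others by more than the limit of Dixon's test for 4 values. All 6 were in IL6-iMHs. Chance alone exceeds this limit in about 1 of 20 groups of independent values. That share may not hold here, as the pairs were picked for their range and mouse-1 entered at both of its passages. Cyp2a5 was at 10.3 FPKM in mouse-1 at P35 and at 0.0431 to 0.078 FPKM in the other lines. The libraries labelled clone-1 IL6-iMHs, which also lack the Y-linked reads of the clone-1 IL6-iHPCs, gave the other 5. Their Cyp2c70, at 63.5 FPKM, was above the 20.5 to 22.7 FPKM of the other lines. Their Cyp2c55 (0.525 against 4.77 to 6.15 FPKM), Cyp3a25 (9.78 against 44.8 to 59.1), Cyp4a12a (27.0 against 149 to 187) and Cyp4a12b (2.77 against 34.9 to 44.0) were below them.

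For 31 members the change upon maturation of mouse-1 differed between P35 and P10, by limma's test of the interaction over technical repeats. The difference, P35 minus P10 on the log2(FPKM + 1) scale, was 6.26 for Cyp2d26, 4.96 for Cyp2d10 and 4.96 for Cyp2d22. It was -2.14 for Cyp1b1, -1.28 for Cyp2c68 and -1.19 for Cyp4v3.

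In the table of day 7 cultures, which entered no test, Cyp2b10 was at 3.03, 2.58 and 2.19 FPKM (mean 2.60) in the medium without IL6, above each of the primary hepatocyte libraries at 1.42 to 1.53 FPKM. In the cultures with IL6 it was at 1.32, 1.97 and 1.41 FPKM.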

How the results depend on the processing

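Over the 18 comparisons, no named member reversed its direction under any alternative, and the count of called members moved by more than 1.5 times under at least 1 alternative in 7 comparisons. For D14 against D3 the count of 16 was 26 with a pseudocount of 0.1 and 32 with voom on recovered reads. For IL6-iMHs against hepatocytes (19 over line means) it was 32 with technical repeats as samples, with or without the replicate block. For IL6-iMHs against passaged IL6-iHPCs (19) it was 0 with no filter, where limma put 28 members higher at an unadjusted p below 0.05, 9 with quantile normalization, 32 with voom, 29 with technical repeats, with or without the replicate block, and 0 to 19 when a line or a library was left out. Maturation counts were 39 with voom at P10 of mouse-1 (25 otherwise), and 35 with a pseudocount of 0.1 and 43 with voom in clone-1 (22 otherwise). At 6 h after PHX quantile normalization gave 6 (10 otherwise), and at 3 days leaving out single libraries gave 10 to 23 (14 otherwise). The cause of these shifts was not tested, except that leaving out a line leaves fewer samples. In line-mean fits the single hepatocyte mean is assumed to vary like the lines. Same-numbered libraries did not deviate together (mean correlation of deviations -0.015 in the cells and -0.030 in the livers, with 4 of 33 and 5 of 18 libraries nearest to their own number), so the numbers were not taken as pairs. The replicate block moved no other count by over 1.5 times. Voom on recovered reads called 9317 of all 12326 genes it tested at D3 against hepatocytes (8135 on FPKM) and 1390 of 11112 in livers at 24 h (878 on FPKM).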
